A study of Rattus norvegicus with 14 samples.

Results

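The constitutive proteasome genes described here are 44 of the 14506 genes measured in the livers of 14 rats. They were taken by name: every gene whose symbol begins with Psma, Psmb, Psmc, Psmd, Psme, Psmf or Psmg and a digit, without the immunoproteasome subunits Psmb8, Psmb9 and Psmb10. Only array probes assigned to exactly 1 gene were used, and a gene with several probes was represented by its brightest. The animals were lean female Zucker rats, heterozygous for the leptin receptor mutation (fa/+), about 15 weeks old at the end of a 64 day diet. The 7 control rats ate a standard diet, and the 7 extract rats ate it with 0.05% by weight of a rosemary extract that was 40% carnosic acid, a diterpene of rosemary leaves. One array was hybridised with liver RNA from each rat, and every level below is a log2 value, so that a difference of 1 is a doubling.

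The proteasome is the cell's main protease for proteins tagged with ubiquitin. Its 20S core is a barrel of stacked rings, with alpha subunits forming the gates and beta subunits holding the active sites inside. The 19S cap binds ubiquitin chains, removes them, and uses a ring of ATPases to unfold the substrate and thread it into the core. Carnosic acid is an electrophile precursor known to activate the transcription factor NRF2 (gene Nfe2l2), which drives detoxification genes through antioxidant response elements and has been linked to core subunit genes such as Psmb5. A related factor, NRF1 (gene Nfe2l1), raises proteasome genes when proteasome activity is blocked. The question addressed was whether the NRF2 response to the extract reached the core or the cap.

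The 44 genes comprised 7 alpha subunits, 8 beta subunits, 6 ATPases and 11 other subunits of the cap, 4 genes of other activators, 6 assembly chaperones, and 2 genes (Psmc3ip and Psme3ip1) that share the name stem without being subunits. Psma3 was measured only on a probe shared with Psma3l, where the difference was 0.04, and Psma3l was also measured on a probe of its own. The current gene table gives Psma3l as a synonym of Psma3, so the 2 names may stand for 1 gene, and the RefSeq entries used below for Psma3l are those listed as Psma3. Psmf1, Psmg3 and Psma8 were not analysed here. The gene table lists 46 pseudogenes for 19 of the genes, including 7 for Psmb3 and 2 listed for Psma3 and counted here under Psma3l, and how far their transcripts enter these probes was not tested. Correlations between arrays over all genes were 0.984 to 0.997, and 0 of 15 hepatocyte markers changed, with a median log2 difference of -0.01. In whole tissue, fewer cells of a type and less RNA per cell cannot be told apart.

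With the extract, 1 of the 44 genes rose and 0 fell. The gene that rose was Psmg2, which encodes a chaperone that helps build the alpha ring. By limma with Benjamini-Hochberg adjustment over all 14506 genes, at an adjusted p of 0.05, this is 2.27% of the members, against 3.15% of all genes changed, 2.0% higher and 1.15% lower. At an unadjusted p of 0.05, 5 of 44 members (11.4%) passed, against 14.8% of all genes. The groups failed to overlap for 0 of 44 members, against 1.54% of all genes. A difference above 0 was measured for 26 of 44 members (59.1%), against 49.7% of all genes, and the members' median difference was 0.04, against -0.00 over all genes. The share of changed genes in the family was thus no higher than over the array.

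The intervals set the size of change that the 14 arrays could have missed. The upper 95% confidence limits, taken for each gene without adjustment, lay below a log2 difference of 0.5 for all 44 members, and the highest was 0.495, for Psmg2. The lowest lower limit was -0.78, for the chaperone gene Psmg4. On the same arrays, 16 of 24 measured NRF2 reference targets rose and 0 fell, against 2.0% and 1.15% of all genes. Their median difference was 0.84. Nqo1, a quinone reductase and standard NRF2 target, went from 8.15 ± 0.29 in control rats to 9.70 ± 0.21 in extract rats (SD, n = 7 each), a 2.94-fold rise (limma adjusted p = 3.59e-07). Gclm, the modifier subunit of the enzyme that limits glutathione synthesis, rose 2.01-fold (limma adjusted p = 3.47e-05). Akr1b8 and Akr7a3, which reduce reactive aldehydes, rose by 4.57 and 2.21 on the log2 scale (limma adjusted p = 2.71e-08 and 3.32e-08), and Abcc3, a conjugate exporter, by 1.97 (limma adjusted p = 5.59e-08).

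**Figure D1:**
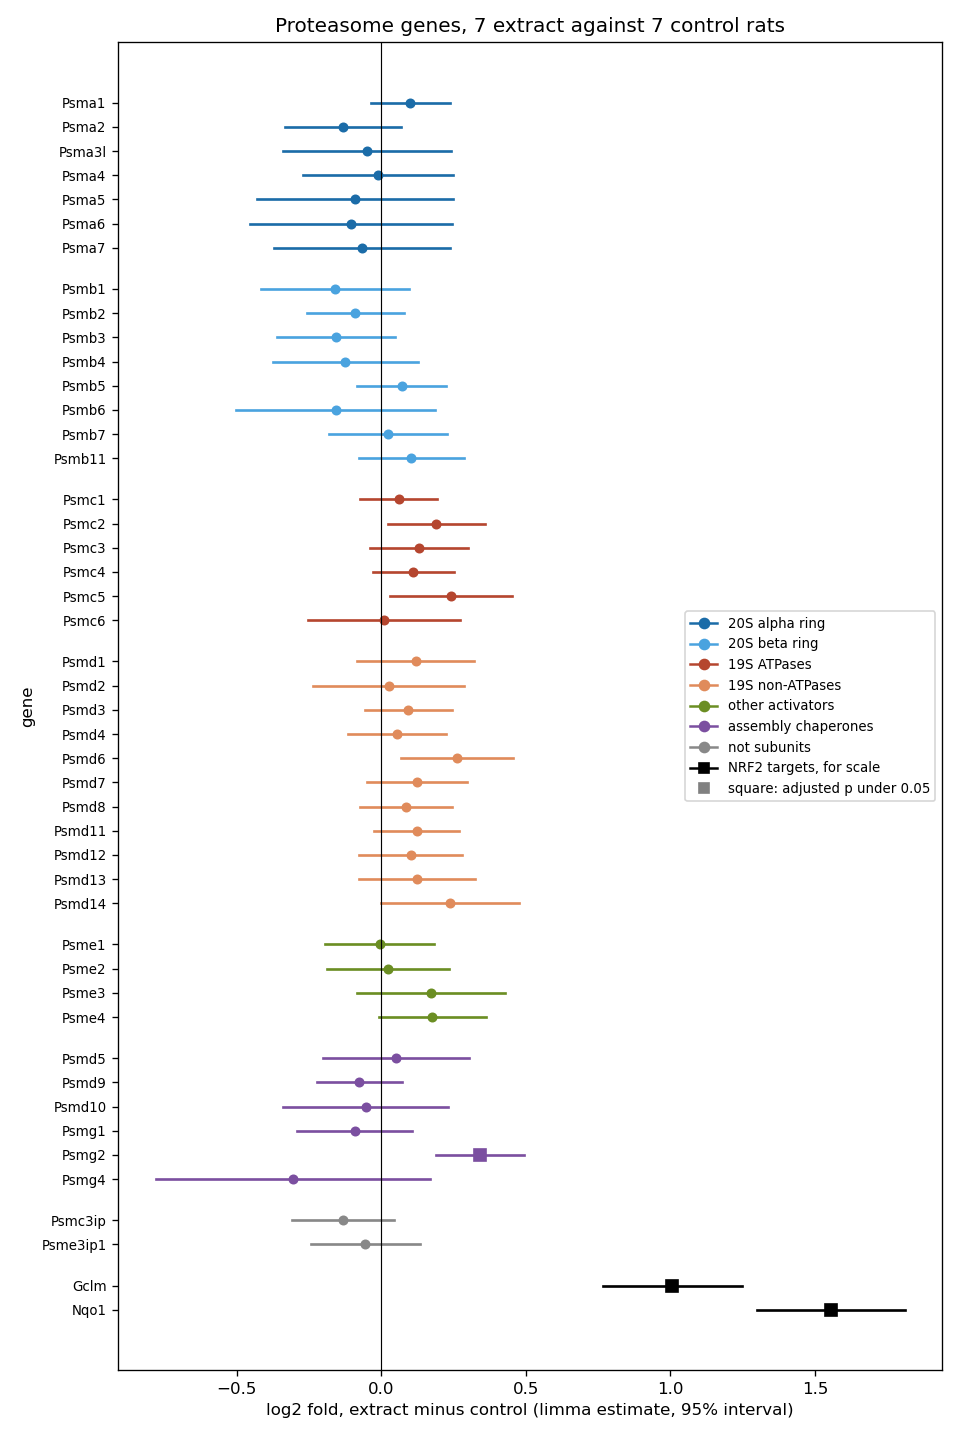
Log2 difference, extract minus control, of each of the 44 genes by role, with 95% confidence intervals from limma (7 rats a group). All 17 cap subunits drawn lie above 0 and 4 of 15 core subunits do. Psmg2, at 0.34, is the only one of the 44 genes past an adjusted p of 0.05 (squares, with Gclm and Nqo1 drawn for scale).

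In the alpha ring, 0 of 7 genes changed, against 3.15% of all genes. The differences ran from -0.13 to 0.10 with a median of -0.07. Psma1 had a lowest, median and highest value of 10.14, 10.30 and 10.45 in control rats and 10.27, 10.44 and 10.53 in extract rats. The ranges overlapped over most of their length, with the highest values in extract rats 7 and 2. Its difference was 0.10 (SE 0.06, limma adjusted p = 0.518). Psma2 ran the other way, at 8.98, 9.26 and 9.38 in control rats against 8.74, 9.11 and 9.38 in extract rats, a difference of -0.13 (limma adjusted p = 0.581). The groups again overlapped, and the lowest rat was extract rat 7. Psma3l, the brightest alpha probe, was at 10.99 ± 0.30 and 10.94 ± 0.28 (SD, n = 7 each), a difference of -0.05 with a 95% interval of -0.34 to 0.24.

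In the beta ring, 0 of 8 genes changed, against 3.15% of all genes. The differences ran from -0.16 to 0.11 with a median of -0.11. Psmb5, which carries the chymotrypsin-like site, was at 11.52, 11.61 and 11.94 (lowest, median and highest) in control rats and 11.60, 11.71 and 11.89 in extract rats. Every extract value lay within the control range, and control rat 1 was the highest of all. The difference was 0.07, or 1.05-fold with a 95% interval of 0.944 to 1.17 (limma adjusted p = 0.738). Psmb6, which carries the caspase-like site, was at 9.97, 10.57 and 10.88 against 9.94, 10.37 and 10.95, a difference of -0.16 with an interval of -0.50 to 0.19. Its second probe gave -0.11. Psmb7, which carries the trypsin-like site, differed by 0.02, with an interval of -0.18 to 0.23. None of the active-site genes passed the test.

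Psmb1, Psmb2 and Psmb3 encode beta subunits without an active site. Psmb3 was at 11.15 ± 0.16 in control rats and 11.00 ± 0.22 in extract rats (SD, n = 7 each), a difference of -0.16 with an interval of -0.36 to 0.05 (limma adjusted p = 0.502). Psmb1 differed by -0.16 (limma adjusted p = 0.611) and Psmb2, the brightest beta probe, by -0.09 (limma adjusted p = 0.685). Psmb11, a catalytic beta subunit specific to the thymus, was at 3.77 ± 0.14 and 3.87 ± 0.18 (SD, n = 7 each), below the median of 5.11 over all probes in the control arrays.

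Core genes varied together from rat to rat within each group. In control rats, rat 5 was the lowest for 12 of 15 core genes and rat 1 the highest for 10. In extract rats, rat 7 was the lowest for 10 of 15, and rats 5 and 4 were the highest for 8 and 6. The median core gene, relative to its control mean, was at -0.34 in control rat 5 and 0.22 in control rat 1, and at -0.43 in extract rat 7 and 0.18 in extract rat 5. The median within-group SD was 0.29 for alpha genes, 0.19 for beta genes, 0.15 for cap genes and 0.16 over all genes, so the alpha genes were the most variable of these. Control rat 5 and extract rat 7 also gave the lowest value of their groups for 45 and 57 of 76 cytosolic ribosomal protein genes, and for 39 and 39 of 68 mitochondrial ones, lists chosen after the values were seen. The median of the cytosolic list was -0.24 in control rat 5 and -0.48 in extract rat 7. The cytosolic list and the core parted in some other rats. Extract rat 6 was the highest for 44 of 76 cytosolic genes and for 0 of 15 core genes, with medians of 0.11 and -0.12. In extract rat 5 the cytosolic median was -0.05 and the core median 0.18. The part of any shared variation in the core values was not tested.

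**Figure D2:**
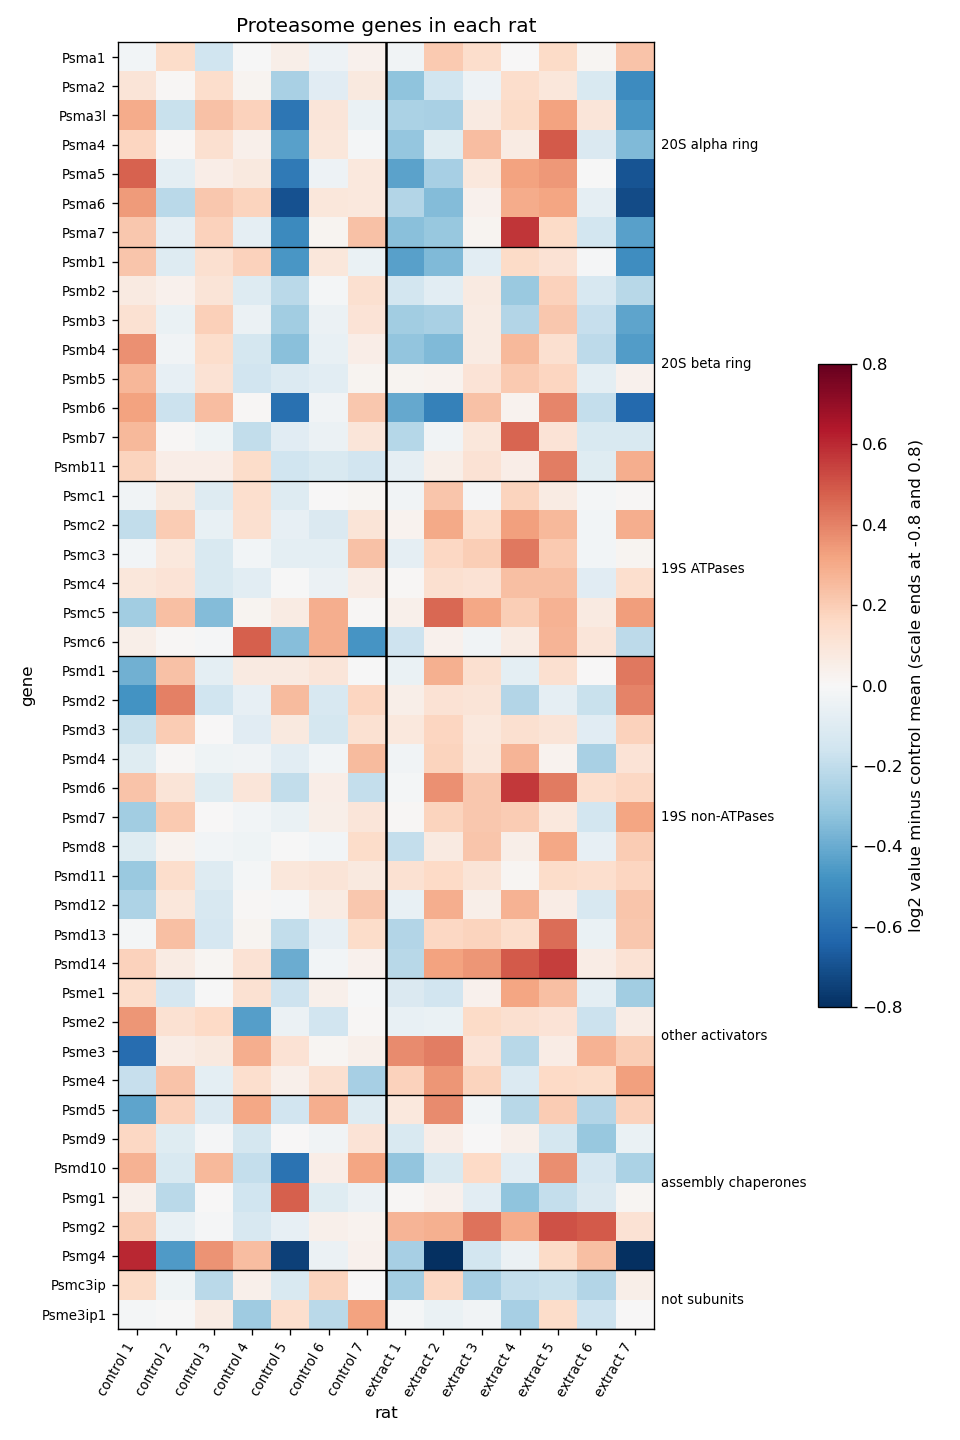
Log2 value of each of the 44 genes in each rat, relative to the gene's mean over the 7 control rats; colours end at 0.8 on either side and a few Psmg4 values lie beyond. The alpha and beta genes are low together in control rat 5 and extract rat 7. The cap genes are mostly above their control means in extract rats 2, 3, 4, 5 and 7, but not in extract rats 1 and 6.

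In the 19S cap, 17 of 17 genes had a difference above 0, against 49.7% of all genes. The median was 0.12 and the range 0.01 to 0.26, but 0 of 17 passed the adjusted test, against 3.15% of all genes. At an unadjusted p of 0.05, 4 of 17 passed, against 14.8% of all genes. Among the ATPases, Psmc5 was at 6.78, 7.14 and 7.41 (lowest, median and highest) in control rats and 7.16, 7.40 and 7.58 in extract rats. Control rats 3 and 1 were the lowest, and the upper part of the control range overlapped the extract rats. The difference was 0.24 (SE 0.10, limma adjusted p = 0.254). Psmc2 was at 9.77, 9.91 and 10.17 against 9.94, 10.23 and 10.30, a difference of 0.19 (SE 0.08, limma adjusted p = 0.258). In 4 of 7 extract rats Psmc2 was above every control rat. Psmc6, the brightest ATPase probe, differed by 0.01 (limma adjusted p = 0.986). For Psmc4 the probe used gave 0.11 and its second probe -0.00.

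Among the non-ATPase subunits, Psmd6, a scaffold subunit of the lid, had the largest difference. It was at 9.44, 9.69 and 9.87 in control rats and 9.62, 9.85 and 10.20 in extract rats (lowest, median and highest). Extract rats 4, 5 and 2 lay above every control rat and the other 4 within the control range. The difference was 0.26 with a 95% interval of 0.07 to 0.46 (limma adjusted p = 0.16). Psmd14, the lid enzyme that cuts ubiquitin chains from the substrate, was at 9.37, 9.80 and 9.95 against 9.54, 10.09 and 10.31, a difference of 0.24 (SE 0.11, limma adjusted p = 0.335). Extract rat 1 was the lowest extract rat for both genes. Psmd8, the brightest probe of this class, differed by 0.09 (limma adjusted p = 0.682).

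The core and cap genes with Psm names differed in the sign of their small differences. A difference above 0 was measured for 4 of 15 core genes (Psma1, Psmb5, Psmb7 and Psmb11), with a median of -0.09. It was measured for 17 of 17 cap genes with Psm names, while the other cap subunits Adrm1 and Sem1 were at 0.001 and -0.28. Core minus cap, taken as medians within each rat, ran from -0.28 to 0.32 in control rats and from -0.62 to -0.03 in extract rats, with extract rats 7 and 2 the lowest. The ranges overlapped. The 76 cytosolic ribosomal protein genes, mostly lowest like the core in control rat 5 and extract rat 7, had 66 differences below 0. Their median was -0.13. None of the 76 passed the adjusted test, against 3.15% of all genes. At an unadjusted p of 0.05, 12 of 76 passed, 1 of them higher, against 14.8% of all genes. Their part in the core differences was not tested. The contrast of core and cap was noticed in the values and is given without a test. Without extract rat 7, 7 of 15 core genes were above 0. Over all analysis settings the count was 3 to 7 of 15 for the core and 15 to 17 of 17 for the cap.

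**Figure D3:**
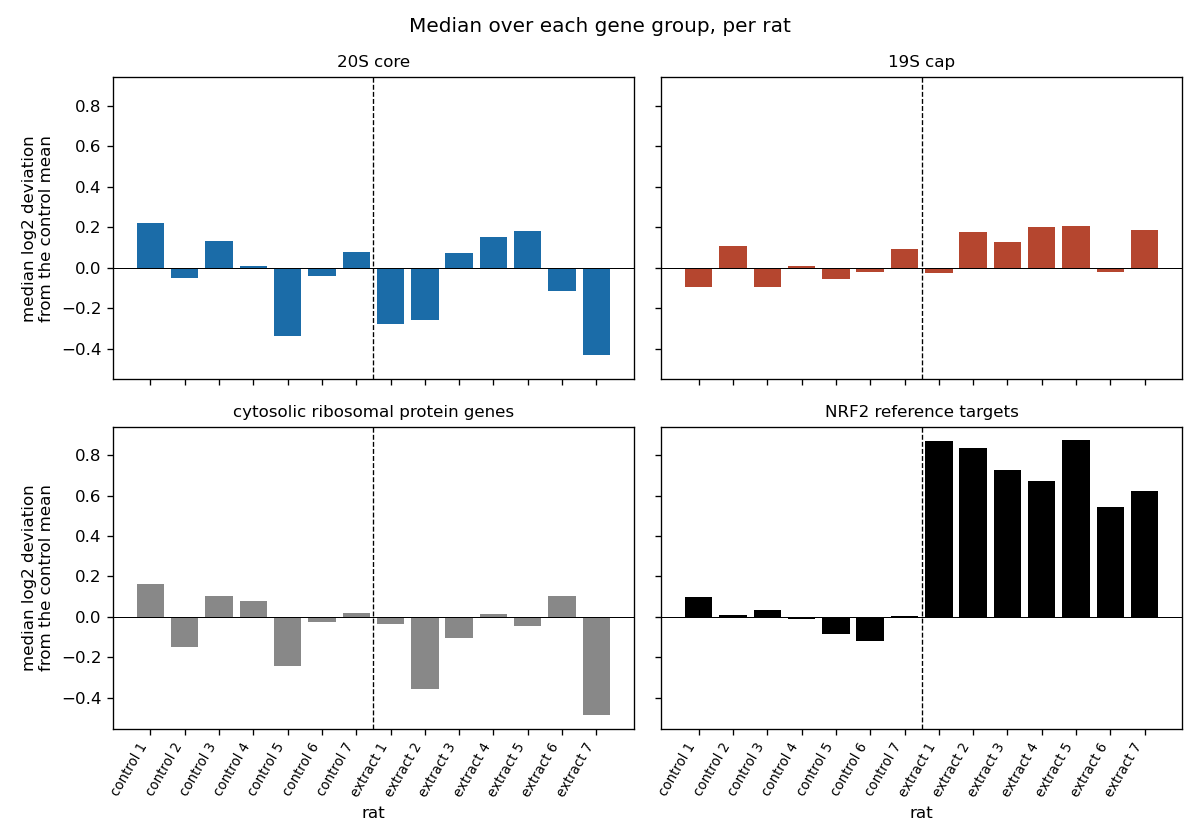
Bars give the median log2 value relative to the control mean in each of the 7 control and 7 extract rats, over the genes of each list. The core medians overlap between the groups. The cap medians overlap too, at -0.10 to 0.11 in control rats and -0.03 to 0.21 in extract rats. The NRF2 targets lie at 0.54 to 0.87 in extract rats and -0.12 to 0.10 in control rats.

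Of the genes for other activators, 0 of 4 changed, against 3.15% of all genes. Psme4, a large single-chain activator that opens the core without ATP, was at 9.61, 9.92 and 10.10 in control rats and 9.77, 10.06 and 10.23 in extract rats (lowest, median and highest). The groups overlapped and the difference was 0.18, with an interval of -0.01 to 0.36 (limma adjusted p = 0.362). Psme3, a nuclear activator, differed by 0.17 (limma adjusted p = 0.569). Psme1 and Psme2, whose products form the interferon-inducible activator, differed by -0.01 and 0.02 (limma adjusted p = 0.989 and 0.95).

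Among the assembly chaperones, Psmg2 rose and the other 5 did not pass the test. Its product pairs with that of Psmg1 to seed the alpha ring. Psmg2 was at 7.22, 6.96, 7.01, 6.89, 6.96, 7.06 and 7.05 in control rats 1 to 7, and at 7.29, 7.31, 7.45, 7.32, 7.53, 7.51 and 7.14 in extract rats 1 to 7. All but extract rat 7 lay above every control rat, and the ranges met between extract rat 7 and control rat 1. Means were 7.02 ± 0.11 and 7.36 ± 0.14 (SD, n = 7 each), a 1.27-fold rise with a 95% interval of 1.14 to 1.41 (limma adjusted p = 0.0122). Its partner Psmg1 was at 9.71 ± 0.23 and 9.62 ± 0.13 (SD, n = 7 each), a difference of -0.09 (limma adjusted p = 0.738). Psmg4, another chaperone of core assembly, had the widest spread of the chaperones. It ran from 9.00 to 10.34 in control rats and from 8.60 to 9.98 in extract rats, lowest in control rat 5 and extract rat 7 as for the core genes, and differed by -0.30 (SE 0.23, limma adjusted p = 0.597). The chaperones of cap assembly, Psmd5, Psmd9 and Psmd10, differed by 0.05, -0.08 and -0.05 (limma adjusted p = 0.903, 0.699 and 0.914).

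**Figure D4:**
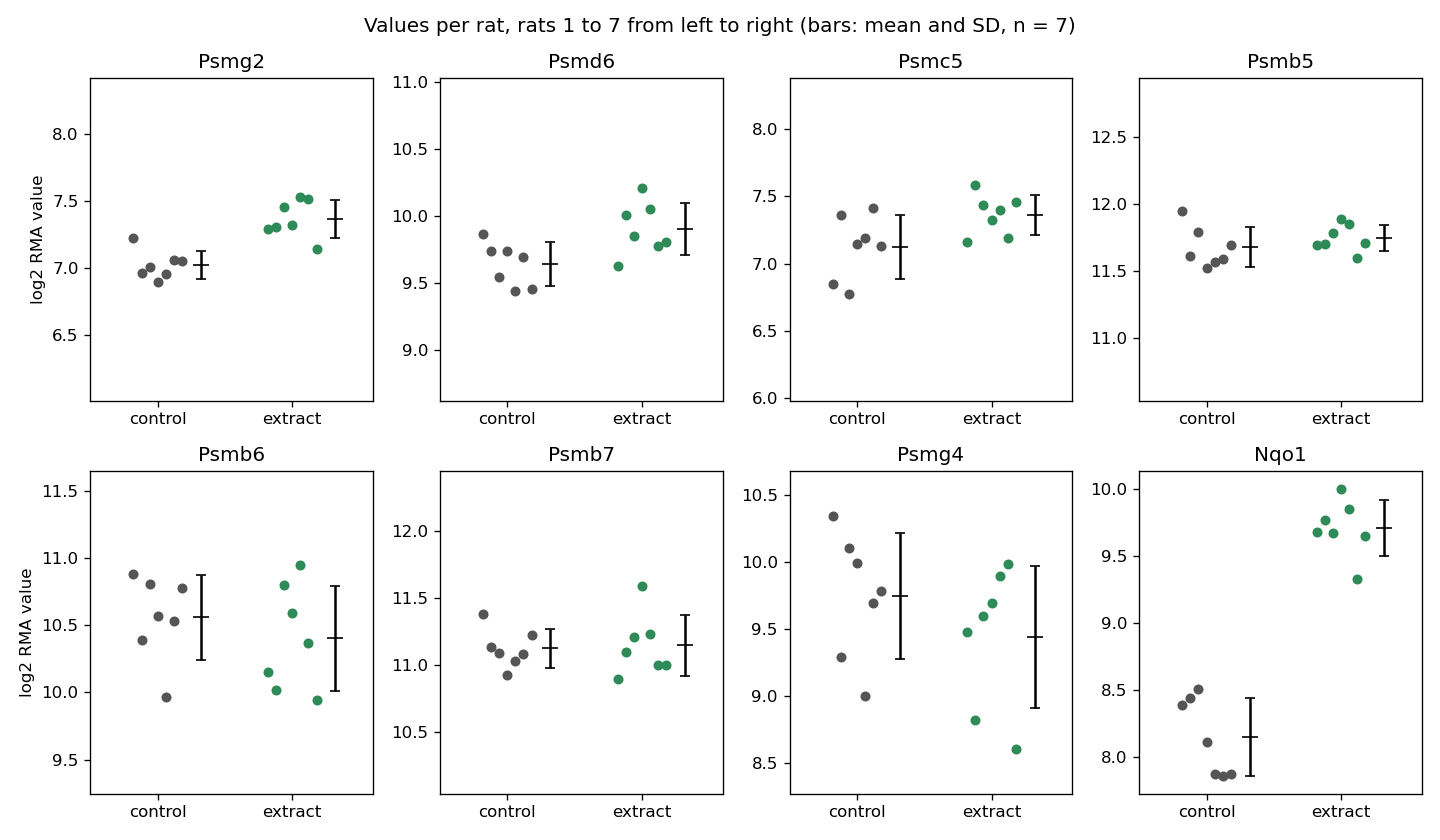
Log2 value in each rat of single genes, with a point for each of the 7 control and 7 extract rats and bars for the mean and SD. Psmg2 separates all but 1 extract rat from the control rats, the core genes shown overlap, and Nqo1 separates fully.

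The 250 bases before the start of Psmg2, the one gene that rose, are shown as the RefSeq promoter of build GRCr8, plus strand, chr18:63478370-63478619. They hold no match to TGACNNNGC, the core letters of an antioxidant response element, on either strand, which says only that these letters are not in this window.
Psmg2: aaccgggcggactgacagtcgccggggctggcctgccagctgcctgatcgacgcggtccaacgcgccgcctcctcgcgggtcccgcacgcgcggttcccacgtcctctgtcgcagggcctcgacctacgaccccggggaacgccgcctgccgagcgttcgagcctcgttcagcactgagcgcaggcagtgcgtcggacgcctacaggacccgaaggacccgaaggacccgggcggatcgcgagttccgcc

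A window of 250 bases before to 50 after the start was found for 39 of the 44 genes. TGACNNNGC was present on either strand in 8 of the 39 (20.5%), against 4038 of 33469 promoters (12.1%), and in 4 of 13 core genes and 2 of 14 cap genes. The genes were Psma3l (by the promoter listed as Psma3), Psmb2, Psmb5, Psmb6, Psmd1, Psmd3, Psmd9 and Psme4. The members' windows had a median GC content of 57% against 51.7% over all promoters. The median log2 difference was 0.01 for the 8 genes with the motif and 0.02 for the 31 without it. Below, capitals mark the match in the core genes and in Gclm, where it reads on the other strand for Psma3l and Gclm; they are shown because the core genes with these letters did not pass the test while Gclm rose. The positions are chr6:95219716-95219748 (plus strand), chr5:144254969-144255019 (plus), chr15:32047410-32047460 (minus), chr10:55737843-55737887 (plus) and chr2:213031942-213031992 (plus), in the order printed. Of other NRF2 targets that rose, Nqo1, Gclc and Srxn1 had no match in their windows. Txnrd1 had a window with a match and a window without. A match is a description of letters and no evidence of binding.
Psma3l: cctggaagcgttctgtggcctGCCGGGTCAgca
Psmb2: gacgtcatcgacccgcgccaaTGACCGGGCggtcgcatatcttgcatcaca
Psmb5: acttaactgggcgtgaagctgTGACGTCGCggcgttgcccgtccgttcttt
Psmb6: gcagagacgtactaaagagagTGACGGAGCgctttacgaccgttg
Gclm: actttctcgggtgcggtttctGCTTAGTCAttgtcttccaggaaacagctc

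The genes that share the name stem without being subunits did not pass the test. Psmc3ip, a partner in meiotic recombination, was at 5.10 ± 0.14 and 4.97 ± 0.17 (SD, n = 7 each; limma adjusted p = 0.513), and Psme3ip1 differed by -0.05 (limma adjusted p = 0.861). Without them the members' median difference was 0.05 over 42 genes.

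The immunoproteasome subunits replace the active beta subunits after interferon and in immune cells. Of the 3, 1 fell, against 1.15% of all genes. Psmb8 was at 9.27, 9.37 and 9.49 (lowest, median and highest) in control rats and 8.67, 9.00 and 9.26 in extract rats. No extract rat reached the control range, with extract rat 6 the lowest. The groups failed to overlap for 1.54% of all genes. The difference was -0.41 (SE 0.08, limma adjusted p = 0.0102). Psmb9 and Psmb10 differed by -0.39 and -0.15 (limma adjusted p = 0.171 and 0.691). On the same arrays, 15 of 15 measured markers of Kupffer cells and macrophages had a difference below 0, against 7291 of 14506 genes. Their median was -0.26. Their mean level ran from 8.80 to 9.11 in control rats and from 8.42 to 8.76 in extract rats. Of these markers, Marco and Vsig4 fell (limma adjusted p = 0.00586 and 0.0243). At an unadjusted p of 0.05, 12 of 15 passed, 0 of them higher, against 14.8% of all genes. Of 6 measured endothelial markers, 0 passed the adjusted test, against 3.15% of all genes. A difference below 0 was measured for 6 of 6, against 7291 of 14506 genes, with a median of -0.18. Of the 6, 2 (Pecam1 at -0.24 and Kdr at -0.23) passed an unadjusted p of 0.05, against 14.8% of all genes. Of the other marker lists, 0 of 8 lymphocyte genes changed, and 1 of 7 bile duct genes (Prom1) and 1 of 9 stellate cell genes (Pdgfrb) fell. Differences above 0 were measured for 5 of 7 bile duct genes (median 0.14) and 4 of 9 stellate cell genes (median -0.09). Control means of Cd3d, Cd3e, Cd3g, Cd8a and Ms4a1 were below 5.11, the median over all probes in the control arrays. So were those of the bile duct genes Krt7, Krt19, Spp1, Cftr and Cldn4. This limits what can be said of those genes. The part of the Kupffer cell, endothelial and other markers in the Psmb8 result was not tested.

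The counts for neighbouring pathways stand beside 3.15% of all genes changed. Of 13 measured proteasome subunits and partners outside the Psm names, Adrm1 and Sem1 among them, 0 changed. Uchl5, a deubiquitinase of the cap, was at a difference of 0.24 (limma adjusted p = 0.294). Of 15 genes listed around the control of proteasome genes, 0 changed, and 9 differences were above 0. The list was broad and also held Vcp, Syvn1, Sel1l and Hspb1, a small heat shock protein gene. Hspb1 had its lowest difference, at -0.38 (limma adjusted p = 0.243). Nfe2l1 differed by 0.11 and Nfe2l2 by -0.27 (limma adjusted p = 0.753 and 0.135), and Bach1, a repressor at antioxidant response elements, by 0.25 (limma adjusted p = 0.0642). Of 20 genes of ubiquitin and its activation, 0 changed, with Ube2d2, a ubiquitin-conjugating enzyme, at 0.18 (limma adjusted p = 0.292). Of 14 heat shock chaperones, 1 rose and 1 fell, against 2.0% and 1.15% of all genes. Hspd1, the mitochondrial chaperonin, rose by 0.36 on the log2 scale (limma adjusted p = 0.048), and Hspa4l fell by 0.54 (limma adjusted p = 0.0423). With every probe tested, the Hspd1 probe used did not pass (limma adjusted p = 0.0905). Its dimmer second probe did, at 0.48 (limma adjusted p = 0.0244).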

How the data were processed

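Liver RNA of 14 rats was measured on Affymetrix arrays, 1 per rat. The deposited values are log2 expression values, normalized by the authors with RMA in Affymetrix Expression Console 1.1.2, per the submitters' processing notes. For the probe design, a build was not given in the sources used here. RMA scales all arrays to one distribution, so a change shared by all genes is removed. Of 29215 probes, 15310 had 1 gene symbol, 323 had several and 13582 were unnamed here. The brightest probe of each gene gave 14506 genes. Groups were compared with limma 3.58.1 (lmFit and eBayes, R 4.3.3), with Benjamini-Hochberg adjustment and a threshold of 0.05. The fit was tried on 5 simulated data sets, with genes drawn independently. It recovered 18.8% of genes changed by a log2 difference of 0.25, 87.2% at 0.5 and 99.6% at 1. Of its calls, 6.7% were false. Most changes as small as those of the cap genes would thus be missed. Precision is limited by having 7 arrays a group. The members and lists were chosen with earlier results of these data known. Genes named were those past the threshold, in each role class the 2 with the smallest p and the brightest, Psmb5, Psmb6 and Psmb7, and in each pathway list those that passed (up to 4) or the one with the smallest p, with Nqo1, Gclm, Nfe2l1 and Nfe2l2; any other was chosen after its values were seen. Rat numbers were not used as pairs. Alternatives were other scalings, probe choices, filters, variance models, array weights, a replicate block and leaving out each rat. Probes of several genes were left out of the fit.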

Additional observations from a re-analysis of the deposited data

Results flagged for a closer look

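A sample stood apart from the others of its group in 7 of 88 groups of 7 rats (44 genes in 2 groups, 7.95%). The measure was the gap to the nearest rat as a share of the whole range, by Dixon's test, and chance finds about 1 in 20 groups. Among control rats, rat 5 was low for Psma4 (gap share 0.682; 9.26 against 9.68 to 9.87), Psma7 (0.587; 8.86 against 9.30 to 9.61) and Psmd14 (0.642; 9.37 against 9.74 to 9.95), and high for Psmg1 (0.630; 10.19 against 9.49 to 9.75). Control rat 7 was high for Psmd4 (0.689; 8.09 against 7.74 to 7.85), and control rat 1 was low for Psme3 (0.689; 8.65 against 9.26 to 9.54). Among extract rats, rat 6 was low for Psmd3 (0.633; 8.71 against 8.88 to 8.98).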

How the results depend on the processing

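Psmg2 passed the test in 25 of 25 settings, with adjusted p from 0.00179 to 0.045, and no other member passed in any. The smallest adjusted p of another member was 0.076, for Psmd6 without control rat 1. The members' median difference ran from 0.02 to 0.07. The count over all genes was 457, and moved to 299 with every probe tested, 694 with array weights, 227 with an unequal-variance test per gene and 719 at an adjusted p of 0.1. Leaving out each rat gave 326 to 621, the highest without control rat 1. Median centring moved the median of all genes to 0.03 and the share of higher calls from 63.5% to 74.2%. Of the 44 members, 9 changed the sign of a difference in some setting. With the rat number as a replicate block, 364 genes passed. Same-numbered rats correlated at -0.46 to 0.28, and 2 of 7 were closest to their own number. No clear pairing by number was seen, though such correlations cannot exclude one. Leaving out the 2 arrays of lowest weight, and the counts of core and cap genes above 0, were chosen after seeing the data. Probe brightness limits what can be said of Psmb11.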
